A study of Mus musculus with 2 samples.

Results

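The cells described here are *Pi16* fibroblasts that also carried the transcripts of an inflammatory and hyaluronan programme, and they are called *Ptx3*/*Has1* Pi16 fibroblasts. They were selected on UMIs (unique molecular identifiers, each counted as 1 RNA molecule) of single cells. A cell had to carry at least 3 of the 6 fibroblast genes *Pdgfra*, *Clec3b*, *Dcn*, *Lum*, *Dpt* and *Col3a1*, no UMI of *Ptprc* (CD45) or *Col15a1*, fewer than 5 UMIs of *Thbs4* and *Cilp* together and at least 3 UMIs of *Pi16*. It also needed at least 5 UMIs summed over *Ptx3*, *Has1*, *Tnfaip6*, *Il6* and *Cxcl1*. This gave 192 cells of the 4502 that passed quality filters and the 5859 deposited. The intact library held 131 of them and the callus library 61. They were 65.5% of the 200 *Pi16* fibroblasts of the intact library (95% exact interval 58.5 to 72.1%) and 57.5% of the 106 of the callus library (47.6 to 67.1%). The intervals overlap. All intervals given here cover counting error only.

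Both groups carried Clec3b.creERT2 and Ai14.R26.tdTomato, in which a tamoxifen-activated Cre made from the *Clec3b* locus switches on tdTomato permanently in *Clec3b*-expressing cells and their progeny. Tamoxifen was given 2 weeks before a stabilized femoral fracture at 6 weeks of age. 3 weeks after surgery, calluses (group callus) and intact diaphyses with their muscle (group intact) of 3 littermates were pooled by group (whether both tissues came from the same mice is not given in the sources used here), digested with collagenase in 2 rounds of 30 minutes at 37 °C and sorted for tdTomato. Each group was 1 library made with the 10x 3′ kit, with 1872 barcodes and 12112002 UMIs for intact and 3987 barcodes and 36714322 UMIs for callus. With 1 library per condition there are no replicates and no test between conditions, mice cannot be told apart, and counts of genes past 2-fold are descriptions. The mice are labelled male, yet *Xist*, the RNA of the inactive X chromosome, was found in 99.2% of the intact and 96.7% of the callus *Ptx3*/*Has1* cells, with 0 UMIs of *Ddx3y*, *Eif2s3y*, *Kdm5d* and *Uty*. Both libraries were alike in this, so neither could be left out for it. The libraries shared 1 barcode, which was not among these cells.

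*Pi16* marks fibroblasts of the adventitia and fascia, which express *Dpp4* and *Cd55* and are regarded as a reserve of progenitors for other fibroblasts. PTX3 is a secreted pattern recognition protein. TSG-6, the product of *Tnfaip6*, transfers heavy chains onto hyaluronan, the polysaccharide that HAS1 makes, and PTX3 crosslinks these chains. IL-6 and CXCL1 are inflammatory mediators that act on many cells and on neutrophils, respectively, and both are known targets of NF-κB.

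The promoters of the 5 genes are shown because these genes define the cells. Each runs from 250 bases before to 50 bases after the transcription start, from RefSeq on build GRCm38.p6, read 5′ to 3′ on the gene's strand. The windows are chr3:66219637-66219936, plus strand (*Ptx3*), chr17:17855139-17855438, minus strand (*Has1*), chr2:52037863-52038162, plus strand (*Tnfaip6*), chr5:30012864-30013163, plus strand (*Il6*) and chr5:90890995-90891294, plus strand (*Cxcl1*). Capitals mark a match to the NF-κB consensus in *Ptx3*, *Il6* and *Cxcl1*, to the AP-1 sequence TGACTCA (read TGAGTCA on the other strand) in *Tnfaip6* and *Il6*, and to the cyclic AMP response element TGACGTCA in *Has1*.
Ptx3: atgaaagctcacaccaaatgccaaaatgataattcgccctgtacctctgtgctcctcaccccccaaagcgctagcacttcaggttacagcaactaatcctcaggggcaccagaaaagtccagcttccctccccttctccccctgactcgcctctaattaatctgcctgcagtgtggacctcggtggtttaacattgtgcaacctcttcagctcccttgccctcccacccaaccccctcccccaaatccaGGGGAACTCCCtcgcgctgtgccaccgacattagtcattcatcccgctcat
Has1: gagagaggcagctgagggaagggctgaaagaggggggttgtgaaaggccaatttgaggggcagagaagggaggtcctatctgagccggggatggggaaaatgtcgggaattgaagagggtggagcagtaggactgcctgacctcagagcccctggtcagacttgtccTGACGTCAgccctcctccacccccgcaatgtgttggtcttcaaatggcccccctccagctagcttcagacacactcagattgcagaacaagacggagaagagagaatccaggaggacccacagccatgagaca
Tnfaip6: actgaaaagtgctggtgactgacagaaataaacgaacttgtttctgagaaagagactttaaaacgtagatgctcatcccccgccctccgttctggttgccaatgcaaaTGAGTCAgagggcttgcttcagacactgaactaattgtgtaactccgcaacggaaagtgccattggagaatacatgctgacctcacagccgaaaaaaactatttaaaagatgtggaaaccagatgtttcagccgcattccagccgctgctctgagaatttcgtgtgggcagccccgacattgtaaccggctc
Il6: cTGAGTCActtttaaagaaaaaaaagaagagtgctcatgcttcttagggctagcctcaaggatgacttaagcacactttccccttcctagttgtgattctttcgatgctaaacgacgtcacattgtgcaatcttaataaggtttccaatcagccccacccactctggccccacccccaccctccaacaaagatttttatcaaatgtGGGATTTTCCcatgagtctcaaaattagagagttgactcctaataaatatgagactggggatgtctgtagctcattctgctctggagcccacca
Cxcl1: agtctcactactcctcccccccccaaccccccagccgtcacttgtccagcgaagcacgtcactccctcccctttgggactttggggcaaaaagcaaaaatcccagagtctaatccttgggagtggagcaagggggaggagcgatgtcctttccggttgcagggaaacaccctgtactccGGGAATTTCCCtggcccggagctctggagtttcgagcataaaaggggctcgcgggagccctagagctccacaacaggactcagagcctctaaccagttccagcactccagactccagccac

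Motifs were searched on both strands. The strict form of the NF-κB motif was in the promoters of *Il6* (first base 44 before the start) and *Cxcl1* (71 before) and in 0.411% of the 32851 promoters of the table. The wider NF-κB consensus, which includes that form, was in 3 of the 5 promoters and in 4.51% of all, and in *Ptx3* it overlapped the start site. TGACTCA was in 2 of the 5 and 5.20% of all, TGACGTCA in 1 of the 5 and 1.79%, and TATAAA in 0 of the 5 and 13.6%. The C/EBP letters TTNNGNAA were in 4 of the 5 and 40.7% of all, the stricter TTGCGCAA in 0 of the 5 and 0.183%, and the STAT letters TTCNNNGAA in 1 of the 5 and 8.30%. A match is a description of the letters and not a site in use.

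The 5 genes chose these cells, so their levels are a description. A cell carried a median of 20 UMIs of the 5 genes in the intact library (range 5 to 207) and 21 in the callus library (5 to 87). In relation to depth this was a median of 24.9 and 32.0 per 10000 UMIs. The limit cut a continuous range, since 11 intact and 6 callus cells held 5 or 6 UMIs, and 9 and 10 other *Pi16* fibroblasts held 3 or 4. At the far end, 35 of the 69 other intact and 25 of the 45 other callus *Pi16* fibroblasts held 0. A limit in UMIs also favours deeply sequenced cells: the median depth was 8636 and 8759 UMIs in *Ptx3*/*Has1* cells against 4384 and 5268 in the other *Pi16* fibroblasts. With each cell thinned to 2000 UMIs, 88.5% of intact and 89.7% of callus *Ptx3*/*Has1* cells still had at least 2 UMIs of the 5 genes, against 10.9% and 13.2% of the others.

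**Figure D1:**
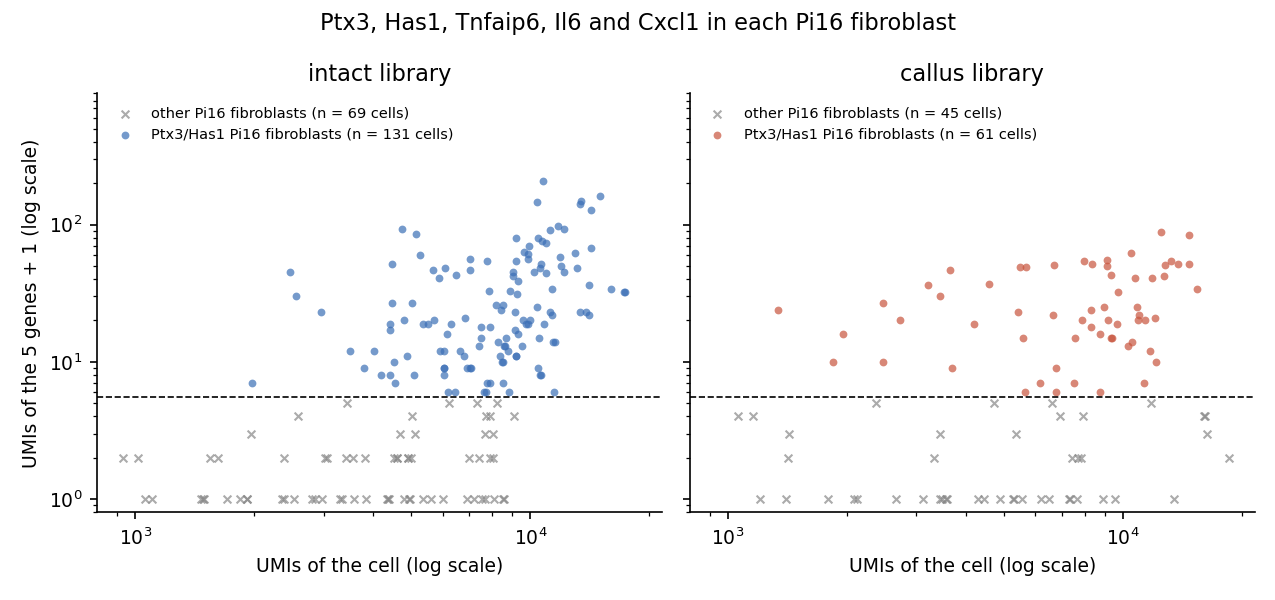
UMIs of the 5 genes plus 1 against all UMIs of the cell, both on log scales, for each Pi16 fibroblast of the intact and callus libraries. The dashed line is the limit of 5 UMIs, circles above it are the 131 and 61 Ptx3/Has1 Pi16 fibroblasts and crosses are the 69 and 45 others, which include more shallow cells.

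*Tnfaip6* was the gene most widely carried, by 96.2% of intact and 93.4% of callus *Ptx3*/*Has1* cells. *Has1* was carried by 84.7% and 85.2%, *Cxcl1* by 63.4% and 59.0%, *Ptx3* by 56.5% and 50.8%, and *Il6* by 36.6% and 44.3%. Between 1 and 5 of the genes were found per cell: all 5 in 26 of the 131 intact and 8 of the 61 callus cells, and only 1 in 4 and 1 cells. Exactly 2 were found in 30 intact and 13 callus cells, so that nearly every cell carried at least 2. *Has1* and *Tnfaip6* were found together in 80.9% and 82.0% of cells. *Il6* was found in 36 of the 83 intact cells with *Cxcl1* and 12 of the 48 without, and in 17 of 36 and 10 of 25 callus cells. Other pairs differed. *Ptx3* was found in 36 of the 48 intact cells with *Il6* and 38 of the 83 without, but in 14 of 27 and 17 of 34 callus cells. It was found in 63 of the 111 intact cells with *Has1* and 11 of the 20 without, and in 25 of 52 and 6 of 9 callus cells, so that the direction was not the same for every pair or library.

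Summed over the *Ptx3*/*Has1* cells of a library, *Ptx3* stood at 654 CPM (counts per 1000000 UMIs) in intact (95% Poisson interval 608 to 703) and 323 in callus (275 to 376). *Has1* stood at 1113 and 1174 CPM, *Tnfaip6* at 1282 and 1050, *Cxcl1* at 657 and 496, and *Il6* at 223 and 324. In B-lineage cells of the same libraries, which should lack these genes, the 5 genes together stood at 7.40 and 30.01 CPM, against 3929 and 3367. The callus value was not spread evenly, since 61 UMIs were in 1 cell and 3 of the 512 cells held 5 or more. Other cells carried part of the programme. They were taken as *Col15a1* cells (at least 2 UMIs of *Col15a1* and fewer than 3 of *Pi16*) and *Thbs4*/*Cilp* fibroblasts (at least 5 UMIs of these 2 tendon and fascia genes). At least 5 UMIs of the 5 genes were held by 20 of 35 intact and 5 of 24 callus *Col15a1* cells. Among *Thbs4*/*Cilp* fibroblasts these were 6 of 24 intact and 23 of 61 callus cells. The *Col15a1* cells were not fibroblasts alone: 10 of the 24 in callus and 1 of the 35 in intact carried *Bglap* (osteocalcin, of osteoblasts) and each held 50 or more UMIs of a list of bone, cartilage and fat genes. Leaving these cells out was chosen after seeing the data. In all *Col15a1* cells of the intact library, *Cxcl1* was at 577 CPM and *Tnfaip6* at 472, while *Ptx3* held 4 UMIs in all and *Has1* was at 66.5 CPM. In the 14 callus *Col15a1* cells without *Bglap*, *Cxcl1* was at 785 CPM, *Tnfaip6* at 444 and *Il6* at 247, and *Ptx3* at 93.8 and *Has1* at 111. *Cxcl1* was thus no lower there than in the *Ptx3*/*Has1* cells (496 CPM). The levels of the other 4 genes in these 14 cells came mostly from the richest cell for each gene. That cell held 26 of 29 *Il6* UMIs, 36 of 52 of *Tnfaip6*, 11 of 11 of *Ptx3* and 9 of 13 of *Has1*. For *Cxcl1* it held 29 of 92. In *Thbs4*/*Cilp* fibroblasts of the callus library, *Has1* was at 302 CPM and *Tnfaip6* at 275.

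**Figure D2:**
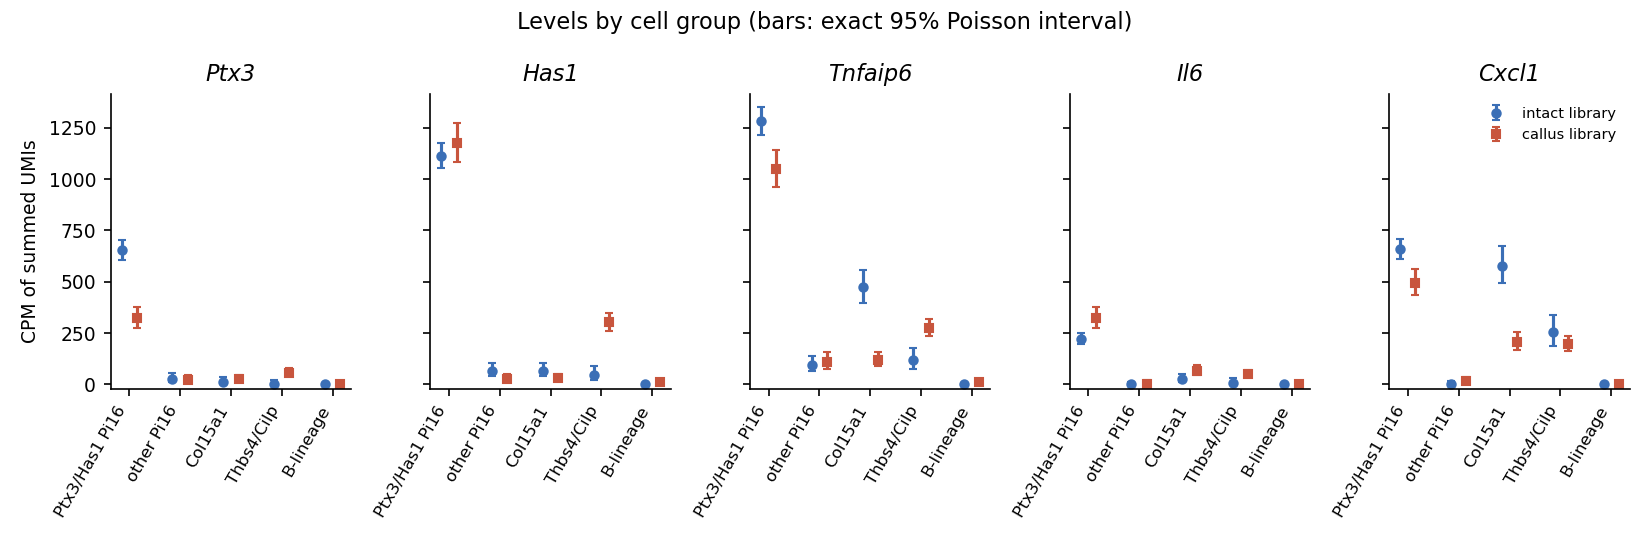
CPM of summed UMIs of Ptx3, Has1, Tnfaip6, Il6 and Cxcl1 in 5 cell groups of the intact (circles) and callus (squares) libraries, with exact 95% Poisson intervals as bars. The Ptx3/Has1 Pi16 fibroblasts were selected on these genes; Cxcl1 in intact Col15a1 cells (577 CPM) comes nearest to them, and the callus Col15a1 points include the 10 Bglap cells.

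To see each gene in cells that it did not choose, cells were taken by the other 4 genes at the same limit. *Ptx3* was then at 659 CPM in the 127 intact cells chosen and 67.3 in the 73 not chosen, a ratio of 9.80 (6.48 to 15.6), and at 327 against 37.4 CPM in callus, a ratio of 8.74 (4.75 to 17.9). *Has1* differed by 5.07 times in intact and 4.19 in callus, *Tnfaip6* by 3.14 and 5.95, and *Cxcl1* by 7.77 and 10.5. For *Il6*, 0 UMIs were found in the 69 intact cells not chosen, so that it was at least 23.2-fold higher in those chosen (a count of 0 is set to 3 counts over the group throughout; the lower end of the counting interval was 18.7), and 1 UMI was found in the 45 callus cells, a ratio of 88.5 with a counting interval of 15.7 to 3515. The 5 genes are those of the cell choice, and for *Il6* the cells are the same 131 and 61 as before, so these ratios are a description. The chosen cells were the deeper ones here too.

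Genes of the *Pi16* progenitor type were compared next. *Pi16* and *Clec3b* were used to choose both groups, so their levels are a description. *Pi16* was at 3532 CPM in intact *Ptx3*/*Has1* cells and 4366 in the others, and 2291 against 3103 in callus. *Dpp4*, a surface peptidase of this progenitor type, was at 493 against 508 CPM in intact and 446 against 462 in callus, and *Clec3b*, the gene of the Cre driver, at 1545 against 1915 and 1556 against 1750. Of 27 progenitor-list genes with at least 20 UMIs in each library's comparison, 0 were past 2-fold in the same direction in both, where 1.76% of all genes were higher and 0.169% lower, so that a count of 0 in a list of this length is near the background. In callus alone *Gfpt2* and *Procr* were past 2-fold, and 21 of the 27 had a ratio above 1, against 6 of the 27 in intact. Their median log2 ratio was −0.13 in intact and 0.12 in callus, beside −0.03 and 0.01 over all genes. *Ptprc* and *Col15a1* were at 0 by the choice of cells.

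The further genes of these cells were sought by comparing them with the other *Pi16* fibroblasts of their library, as the ratio of CPM for genes with at least 20 UMIs over both groups. In the intact library 475 of 7246 genes (6.56%) were at least 2-fold higher in *Ptx3*/*Has1* cells and 209 (2.88%) at least 2-fold lower. In callus these were 345 of 5427 (6.36%) and 177 (3.26%). In both libraries, 94 of 5330 genes (1.76%) were higher and 9 (0.169%) lower. These shares are the background for every list count below of genes higher or lower in both libraries. The cells were selected on 5 inflammatory genes of these same transcriptomes, so genes that accompany them describe the cells and are not independent of the choice.

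*Ccl2* (chr11:82035571-82037453, plus strand, GRCm38), a chemokine that draws in monocytes, was at 370 CPM in intact and 185 in callus *Ptx3*/*Has1* cells, with 0 UMIs in the other *Pi16* fibroblasts of either library, so it was at least 38.4-fold and 16.8-fold higher against 3 counts (lower ends of the counting intervals 31.1 and 13.4). It was nevertheless carried by a minority, 22.9% and 24.6% of the cells. After thinning, it was found in 25 of 130 intact and 8 of 58 callus cells, against 0 of 55 and 0 of 38 of the others. At 3 counts these zeros still leave room for 5.45% and 7.89% of cells with a UMI, and the upper ends of their Clopper-Pearson intervals are 6.49% and 9.25%. In B-lineage cells, of lower original depth (medians 3041 and 3601 UMIs), the thinned shares were 0.549% and 0.411%. *Ccl7*, a related ligand, was at 248 against 35.3 CPM in intact and 146 against 7.34 in callus. The interferon-inducible *Cxcl10* was 22.3-fold higher in intact (2 UMIs in the others) and 38.1-fold in callus (1 UMI), with log2 intervals of 2.61 to 7.54 and 2.73 to 10.57. *Cxcl2* was listed at 0 in the others of both libraries, and its 31 callus UMIs came from 3.28% of the cells. Of the 9 chemokine-list genes with enough UMIs in both libraries, 5 were at least 2-fold higher in both (*Ccl2*, *Ccl7*, *Ccl8*, *Cxcl2* and *Cxcl10*). *Ccl8* rested on 2 and 5 UMIs in the other *Pi16* fibroblasts, and its log2 intervals reached below 0 in both libraries. *Cxcl13*, a B-cell attractant, was at least 2-fold lower in both, at 44.3 against 103 CPM and 11.8 against 88.0. The list's median log2 ratio was 1.53 in intact and 1.24 in callus.

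*Ptgs2* (chr1:150100031-150108227, plus strand), the inducible cyclooxygenase that starts prostaglandin synthesis, was at 735 CPM in intact *Ptx3*/*Has1* cells against 64.3 in the others, and at 517 against 44.0 in callus. The log2 ratios were 3.52 (2.88 to 4.24) and 3.55 (2.73 to 4.53). The next enzyme, *Ptges*, was not apart, at 34.6 against 35.3 CPM and 47.2 against 44.0. Of 6 prostaglandin-list genes tested in both libraries, *Ptgs2* was the 1 gene higher in both.

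Among NF-κB regulators, *Nfkbia*, which encodes the inhibitor IκBα, was at 834 against 251 CPM in intact and 759 against 121 in callus. *Nfkbiz*, a nuclear member of the same family needed for secondary response genes such as *Il6*, was at 463 against 61.0 and 507 against 88.0 CPM. Thinned, *Nfkbiz* was found in 43.8% and 56.9% of *Ptx3*/*Has1* cells and in 5.45% and 5.26% of the others. *Ier3* was at 227 against 28.9 and 157 against 25.7 CPM. *Bcl3* was past 2-fold as well, on 2 and 5 UMIs in the other cells, so that 4 of 12 genes of the list were higher and 0 lower in both libraries. The list's median log2 ratio was 0.79 in intact over 21 genes and 0.40 in callus over 13. *Tnfaip3*, which encodes the deubiquitinase A20, had 35 UMIs in intact and 8 in callus *Ptx3*/*Has1* cells, too few in callus for the comparison.

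Of the IL-6, JAK and STAT genes, 5 of 16 were higher in both libraries and 0 lower. *Socs3*, the feedback inhibitor of gp130 signalling, was at 813 against 276 CPM in intact and 1007 against 275 in callus. *Socs1* had log2 ratios of 1.40 and 1.37, *Pim1* of 2.38 and 1.25, *Cebpb* of 1.97 and 1.49 and *Cebpd* of 1.32 and 1.03. The receptor subunit *Il6st* (gp130) was not apart, at 167 against 183 CPM and 210 against 238, and *Stat3* was at 73.5 against 51.4 and 124 against 84.4. The genes past 2-fold were thus feedback inhibitors, a kinase and C/EBP factors, and not the receptor subunit or *Stat3*. *Irf1*, a further STAT and NF-κB target, was at 431 against 86.7 CPM and 287 against 69.7. It was the 1 gene of 16 on the interferon list higher in both, and the list's median log2 ratio was 0.00 in intact and −0.41 in callus.

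Among the other genes of hyaluronan synthesis, *Ugdh* makes UDP-glucuronate, a building block of hyaluronan, and was at 1406 CPM in intact *Ptx3*/*Has1* cells against 652 in the other *Pi16* fibroblasts, and at 1597 against 499 in callus. *Has2*, another synthase, was at 274 against 145 CPM in intact, a log2 ratio of 0.92 (0.47 to 1.41), and at 224 against 55.0 in callus (2.03, 1.24 to 2.91). Of 8 genes of the synthesis list outside the 5, *Ugdh* was the 1 gene past 2-fold in both libraries, and the list's median log2 ratio was 0.14 in intact and 0.96 in callus. The receptor *Cd44* was at 53.2 against 35.3 and 47.2 against 40.3 CPM, and the hyaluronan-binding proteoglycan *Vcan* at 302 against 231 and 295 against 293. Of the 3 binding-list genes tested, 0 were past 2-fold in either library. Over all genes 6.56% were higher and 2.88% lower in intact, and 6.36% and 3.26% in callus, so 0 of 3 says nothing about this list.

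Metallothioneins, small proteins that bind zinc, were both higher. *Mt1* was at 2506 against 851 CPM in intact and 2374 against 748 in callus, and *Mt2* at 1477 against 533 and 1546 against 392. *Mt1* was not particular to these cells. It was at 2911 CPM in intact and 923 in callus *Col15a1* cells (*Bglap* cells included), and at 1911 and 1347 in *Thbs4*/*Cilp* fibroblasts. *Mtf1*, of the same list, was at least 2-fold lower in intact and had too few UMIs in callus for the comparison.

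Immediate-early and dissociation genes, which cells also switch on during enzymatic digestion, were the longest list (43 genes). They had most genes past 2-fold by number: 20 of 37 were higher in both libraries and 0 lower, with median log2 ratios of 1.04 and 1.47. By share of genes tested, chemokines (5 of 9, among them *Ccl8* and *Cxcl2* with the limits given above) were close to them. Metallothioneins (2 of 2) stood above them on 2 genes only. Over all genes the share was 1.76%. *Atf3*, a stress transcription factor, was at 1429 against 267 CPM and 1239 against 183. *Nr4a1*, an early-response nuclear receptor, was at 188 against 16.1 and 183 against 18.3 CPM, *Myc* at 153 against 19.3 and 124 against 25.7, and *Fos* at 4643 against 2120 and 5068 against 1937. The summed level of the list was not highest in *Ptx3*/*Has1* cells. It was 33636 CPM in intact and 36393 in callus, against 17067 and 14144 in the other *Pi16* fibroblasts, 51397 and 20013 in *Col15a1* cells (55798 and 41095 without the *Bglap* cells) and 36252 and 36723 in *Thbs4*/*Cilp* fibroblasts. All tissue was digested for the same time, and the part of dissociation in the inflammatory genes was not tested.

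The remaining genes named by size were *Gem* (a small GTPase), *Ifrd1*, *Bhlhe40* (a transcriptional repressor), *Trib1*, *Sbno2* and the long noncoding RNA *Gm12840*, with log2 ratios from 2.01 to 3.04 in intact and from 2.10 to 4.93 in callus. *Lars2*, the mitochondrial leucyl-tRNA synthetase, was the 1 gene lower in both libraries with enough UMIs and cells to be named, at 700 against 1645 CPM in intact and 303 against 833 in callus. It did not hold at 2-fold in intact cells of 4000 to 9000 UMIs, where its log2 ratio was −0.70. The other 8 genes lower in both, listed after their values were seen, *Col8a1*, *Cxcl13*, *E130102H24Rik*, *Fam3a*, *Mgp*, *Mill2*, *P3h1* and *Rgma*, did not meet the naming rule. Of 32 collagen and matrix genes 0 were higher and 1, *Col8a1*, was lower in both. Of 8 complement genes 0 were past 2-fold in the same direction in both, and so were 0 of 12 cytokine and growth factor genes, 0 of 9 genes of the *Col15a1* fibroblast list and 0 of 8 Wnt and BMP antagonists. With 1.76% of all genes higher and 0.169% lower in both, zeros in lists of this length say nothing about them. In the lists of proteases, innate receptors and hypoxia, 1 gene each was higher in both: *Adamts1* of 14, *Tnfrsf1b* of 14 and *Hk2* of 12.

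**Figure D3:**
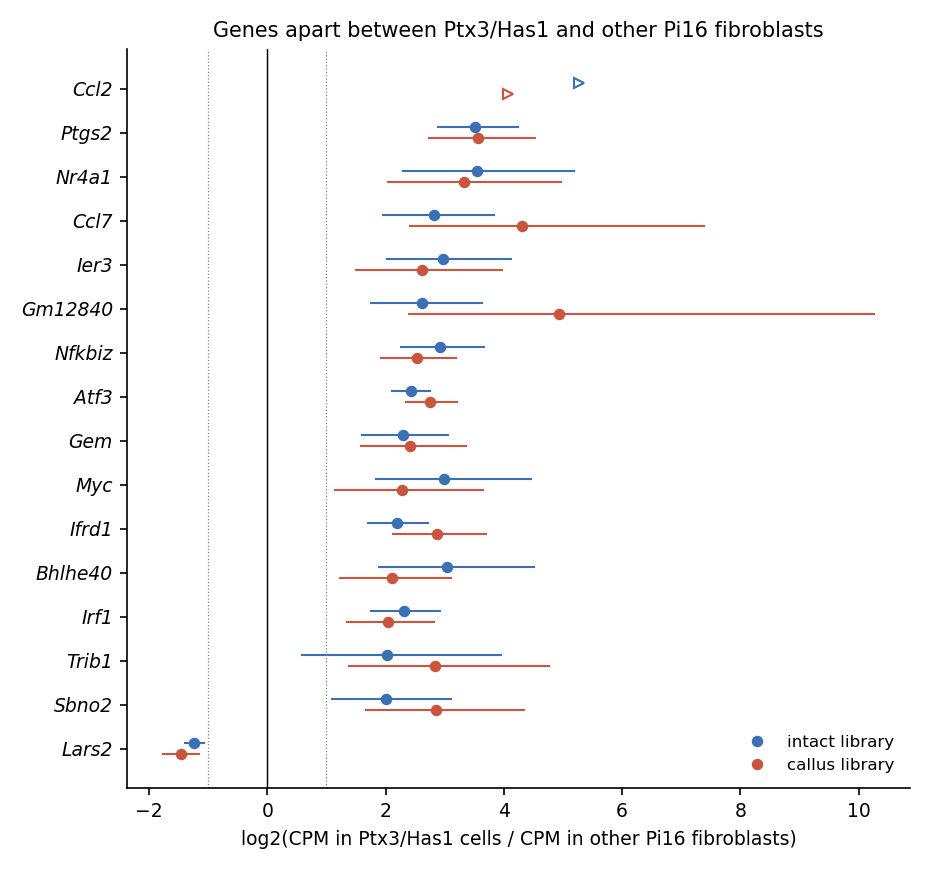
Log2 ratio of CPM in Ptx3/Has1 Pi16 fibroblasts over other Pi16 fibroblasts for the 15 higher and 1 lower genes named, in the intact and callus libraries. Lines are exact 95% counting intervals, open triangles are lower bounds for Ccl2 (0 UMIs in the other cells) and dotted lines mark 2-fold.

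Within the *Ptx3*/*Has1* cells, the lists were summed in low, middle and high groups of cells by the level of the 5 genes, leaving out the genes that chose the cells. These groups held 44, 44 and 43 intact cells and 21, 20 and 20 callus cells, at 11.7, 26.1 and 78.7 UMIs of the 5 genes per 10000 in intact and 13.1, 31.4 and 69.3 in callus. Metallothioneins differed most among the lists plotted, at 1910, 4040 and 6080 CPM in intact and 2210, 4768 and 5542 in callus, so that the high group was at 3.18 and 2.51 times the low group. NF-κB regulators were 2.39-fold and 2.12-fold higher in the high group, the IL-6, JAK and STAT list 1.66-fold and 1.87-fold, and immediate-early genes 1.54-fold and 1.92-fold. Among single genes, *Nfkbiz* was 3.46-fold and 4.83-fold higher, *Ptgs2* 5.09-fold and 2.92-fold, *Ugdh* 2.16-fold and 3.68-fold and *Socs3* 2.42-fold and 2.80-fold. The progenitor list was 0.941 and 1.00 times its level in the low group, the collagen and matrix list 0.987 and 0.984 times and the interferon list 0.952 and 0.931 times. Of the lists not plotted, hyaluronan synthesis without *Has1* was 1.85 and 2.50 times its level in the low group and chemokines 1.92 and 1.48 times, while complement was 0.862 and 0.801 times and the *Col15a1* fibroblast list 0.863 and 0.698 times. The cells were sorted on the 5 genes that also chose them, so these levels are a description and support nothing. Median depth was 8497, 8306 and 9847 UMIs in the intact groups and 9362, 9423 and 5586 in the callus groups.

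**Figure D4:**
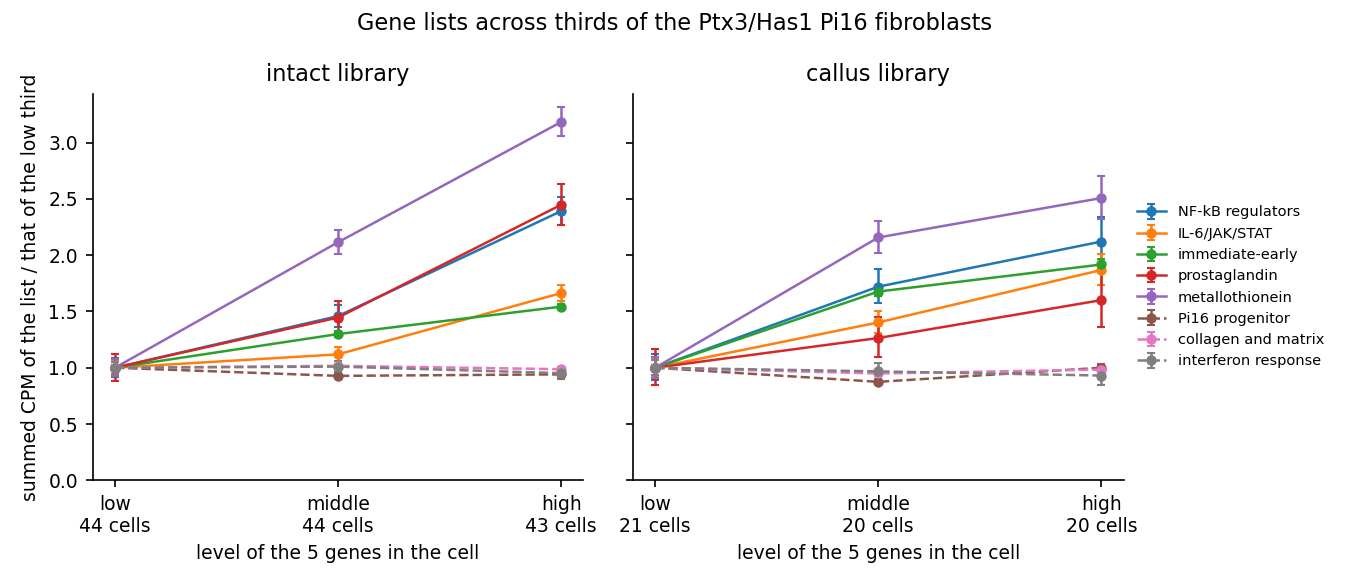
Summed CPM of 8 gene lists in the low, middle and high groups of Ptx3/Has1 Pi16 fibroblasts by their level of the 5 genes, divided by the low group, with exact 95% Poisson intervals of each sum. Solid lines (5 lists) go up in both libraries and dashed lines (Pi16 progenitor, collagen and matrix, interferon) stay between 0.875 and 1.02.

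Several of these genes were also found in other cell groups. Of the 94 genes higher than in other *Pi16* fibroblasts in both libraries, 22 were also at least 2-fold higher than in *Col15a1* cells in both and 19 at least 2-fold higher than in *Thbs4*/*Cilp* fibroblasts in both. Over all genes, 452 of 5510 (8.2%) and 268 of 6217 (4.31%) were past these limits. 12 genes of 5040 (0.238%) were past 2-fold against all of these groups in both libraries: *Ccl2*, *Cxcl2*, *Cyth1*, *Dusp10*, *Eif4e*, *Gm12840*, *Mt2*, *Nfil3*, *Nfkbia*, *Ptgs2*, *Pvr* and *Ugdh*. Without the *Bglap* cells, the 22 genes became 9 (over all genes, 5.32% of 4683) and the 12 became 7 of 4598 (0.152%), *Cxcl2*, *Dusp10*, *Gm12840*, *Nfil3*, *Ptgs2*, *Pvr* and *Ugdh*. Those outside the lists were named after their values were seen. *Cxcl2* rested on few callus cells, as given above. It had no UMIs in the *Col15a1* cells of either library, so its ratios to them are set by the floor. *Ugdh* was at 101 and 239 CPM in *Col15a1* cells without *Bglap* and 129 and 191 in *Thbs4*/*Cilp* fibroblasts, against 1406 and 1597 in the *Ptx3*/*Has1* cells. *Ptgs2* was at 132 and 34.1 CPM in the former and 10.7 and 65.4 in the latter. *Ier3* was instead highest in *Thbs4*/*Cilp* fibroblasts, at 284 and 517 CPM against 227 and 157 in the *Ptx3*/*Has1* cells. In *Col15a1* cells without *Bglap*, *Socs3* was at 760 and 913 CPM, against 813 and 1007 in the *Ptx3*/*Has1* cells, and *Cebpd* at 1905 and 947, against 1069 and 966. These groups held 35 and 24 *Col15a1* cells and 24 and 61 *Thbs4*/*Cilp* cells, and the callus *Col15a1* cells had an upper quartile of 32414 UMIs.

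The callus and intact *Ptx3*/*Has1* cells were then set side by side. Of 7706 genes, 283 (3.67%) were at least 2-fold higher in callus and 336 (4.36%) at least 2-fold lower. Fracture and library cannot be told apart in these ratios. Among the genes that chose the cells, *Ptx3* had a log2 ratio of −1.02 (−1.27 to −0.77), *Has1* of 0.08 (−0.07 to 0.22), *Tnfaip6* of −0.29, *Il6* of 0.54 and *Cxcl1* of −0.41. *Ccl2* was at 370 CPM in intact and 185 in callus, and *Ptgs2* had a log2 ratio of −0.51. The medians were 0.01 for the NF-κB regulators over 23 genes, −0.04 for IL-6, JAK and STAT over 21 and 0.13 for immediate-early genes over 39, beside 0.01 over all genes. Chemokines (−0.18, with 3 of 10 ratios above 1), cytokines and growth factors (−0.28, with 4 of 16) had lower medians. The interferon list had a median of −0.24 with 9 of 21 ratios above 1, while its summed level was 3718 CPM in intact and 3866 in callus, and its median in the other *Pi16* fibroblasts was 0.49.

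Complement genes lay on the callus side. All 8 of the complement list with enough UMIs had a ratio above 1 and 3 were past 2-fold. Over all genes 3.67% were at least 2-fold higher in callus, and the median log2 ratio was 0.01. *C3*, the central component, was at 1215 CPM in intact and 2649 in callus *Ptx3*/*Has1* cells, a log2 ratio of 1.12 (1.02 to 1.23). Thinned, it was found in 72.3% and 94.8% of cells. *C4b* of the classical pathway was at 30.1 and 228 CPM (2.92, 2.36 to 3.52), and *Cfb* of the alternative pathway at 23.0 and 126 (2.45, 1.77 to 3.17). The other *Pi16* fibroblasts had the same direction, with log2 ratios of 1.11 for *C3*, 4.68 for *C4b* and 2.32 for *Cfb*. In *Thbs4*/*Cilp* fibroblasts *C3* was lower in callus (−2.24). Of 20 proteases and their inhibitors, 14 had a ratio above 1, with a median log2 ratio of 0.22, and 5 were past 2-fold. *Mmp14*, a membrane-bound collagenase, was at 220 and 502 CPM (1.19, 0.93 to 1.45). *Mmp3* was at 16.8 and 130 CPM, and 47.0% of its 66 callus UMIs came from 1 cell, without which it was at 71.0. *Apoe* was at 13.3 and 112 CPM, and without its richest cell at 60.2 in callus. 25 of 36 collagen and matrix genes had a ratio above 1, with a median log2 ratio of 0.28, and 2, *Lox* and *Thbs1*, were past 2-fold. A count of 2 of 36 is near the share over all genes and says nothing about the list. *Lox*, which crosslinks collagen, was at 22.1 and 78.7 CPM (1.83, 1.07 to 2.61). Of 10 Wnt and BMP antagonists, 5 had a ratio above 1, with a median log2 ratio of 0.01. *Sfrp1* and *Sfrp4* were past 2-fold higher and *Bambi* past 2-fold lower, and *Sfrp4* was at 240 and 488 CPM (1.02, 0.77 to 1.28).

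The callus side also held muscle genes. *Acta1*, *Tnnc2*, *Ckm*, *Tnni2*, *Tnnt3* and *Mylpf*, which encode contractile and energy proteins of myofibres, had log2 ratios of 2.83 to 3.86, and 10 of 10 myofibre-list genes were past 2-fold. Of the 997 myofibre UMIs of callus *Ptx3*/*Has1* cells, 818 were in 2 cells. Without cells of 50 or more such UMIs the summed level was 370 CPM in callus, against 201 in intact. *Mki67*, *Top2a* and *Birc5* of the cell cycle were past 2-fold as well, but 16 of 18, 11 of 11 and 16 of 16 callus UMIs were in 1 cell.

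On the intact side, *Smpd3*, a neutral sphingomyelinase, was at 1771 CPM against 476 in callus (−1.90, −2.09 to −1.70). In other *Pi16* fibroblasts its log2 ratio was −1.36. *Bmp4*, a bone morphogenetic protein, was at 61.1 against 17.7 CPM (−1.79, −2.98 to −0.78) and *Krt19* at 75.3 against 21.6 (−1.80, −2.86 to −0.89). The ratio of *Krt19* turned to 0.39 in cells of 4000 to 9000 UMIs, a range chosen after seeing the data. *Pi16* itself was lower in callus, at 3532 and 2291 CPM. Some of the most negative genes were as far apart in B-lineage cells: *AY036118* had a log2 ratio of −3.12 in *Ptx3*/*Has1* cells and −3.44 in B-lineage cells, and *Bloc1s1* of −1.84 and −1.88. *Plac9b* (−1.96), *Gm17056* (−3.87), *Syn3* (−2.05) and the globin gene *Hbb-bt* (−2.09) were also named by size on the intact side. *Hbb-bt* turned to 0.70 after thinning, and 2 intact cells held 10497 of the 11505 UMIs of the erythroid list and 1 callus cell 2064 of 2174. Without these 3 cells the erythroid list stood at 911 CPM in intact and 223 in callus. Of the 283 genes higher in callus, 64 had enough UMIs in the other *Pi16* fibroblasts. Of these 64, 46 had the same sign there and 18 were past 2-fold the same way. For the 336 lower genes these numbers were 86, 61 and 22. The share of all genes with the same sign was not counted, so these counts do not say how far the shift was shared.

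**Figure D5:**
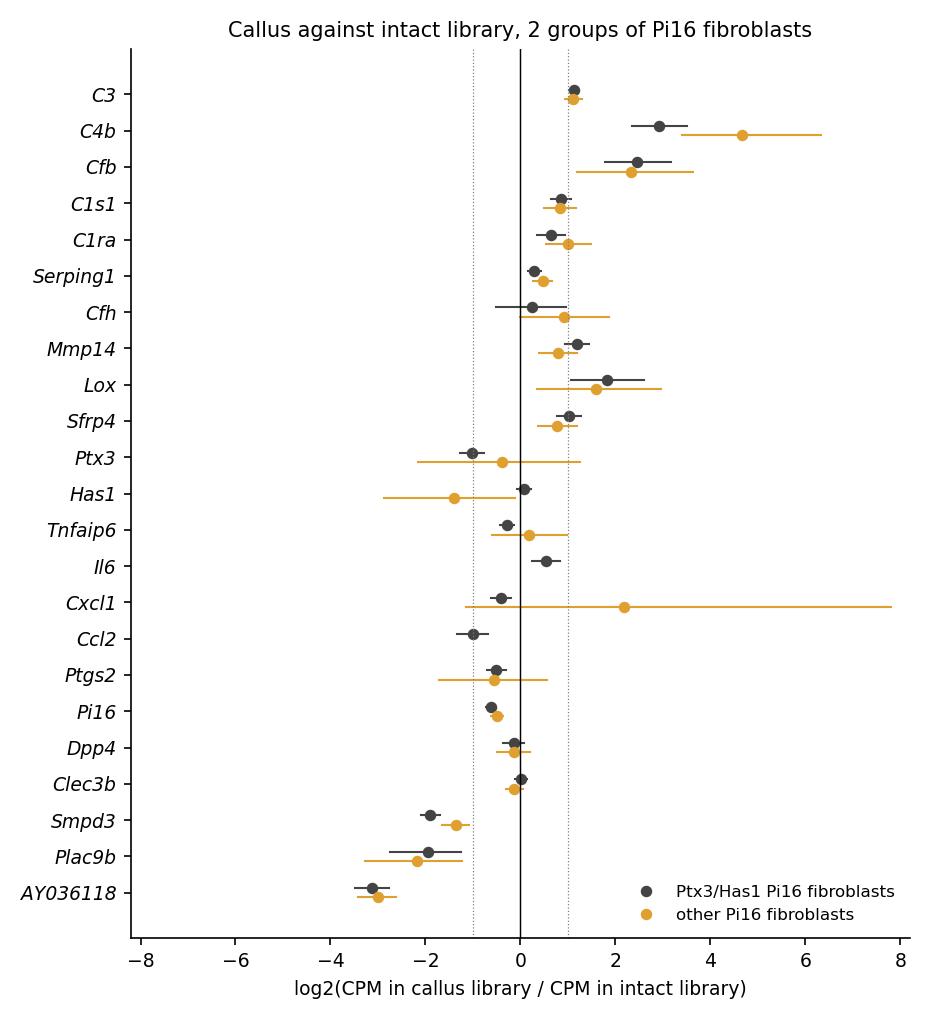
Log2 ratio of CPM in the callus over the intact library for selected complement, matrix, inflammatory, identity and library-wide genes, in Ptx3/Has1 Pi16 fibroblasts (dark) and other Pi16 fibroblasts (yellow). Lines are exact 95% counting intervals, dotted lines mark 2-fold, and genes with at most 3 UMIs in each group are not drawn; C3, C4b and Cfb lie past 2-fold in callus in both groups.

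Markers of other cell types were counted over all *Ptx3*/*Has1* cells. *Adgre1*, *Cd68*, *Mrc1*, *C1qc* and *Fcgr3* of macrophages were at 0 in both libraries, with 11 and 17 UMIs over the whole list of 10 genes, mostly *Lyz2*. Endothelial genes held 15 and 5 UMIs, with *Cdh5* and *Cldn5* at 0, and pericyte and smooth muscle genes 17 and 15, with *Rgs5* and *Myh11* at 0. Haematopoietic genes held 271 and 201 UMIs (240 and 395 CPM), led by *S100a9* with 80 and 73. Tenocyte genes held 17 and 11 UMIs with *Scx* at 0 (*Cilp* with 9 of the 17 and *Thbs4* with 6 of the 11 were limited by the choice of cells), satellite cell genes 54 and 27 with *Myod1* at 0, and adipocyte genes 0. Of the intact satellite cell UMIs, 30 were in 1 cell, and *Pax7* (9 UMIs), *Chodl* (8), *Myf5* (3) and *Cdh15* (2) were each found in 1 cell. Of the mesothelial list, *Krt19* held 85 of 86 and 11 of 11 UMIs, with *Msln* and *Upk3b* at 0. Of the glial and perineurial list, *Scn7a* held 117 of 127 and 82 of 91. Erythroid genes were found in 129 of the 131 intact and 48 of the 61 callus cells, and 2 intact and 1 callus cells held 50 or more such UMIs. With those 3 cells and the other globin-rich or myofibre-rich cells left out, 90 of the 94 genes higher in both libraries had enough UMIs, and 80 were still past 2-fold in both.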

How the data were processed

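Callus and intact tissue of 3 littermate mice was pooled by group, sorted for tdTomato and sequenced as 1 library per group. The authors deposited UMI counts per gene and barcode from Cell Ranger 6.0.0 on mm10 (per the file headers and the submitters' processing notes), without normalization. Barcodes under 500 genes or over 10% of UMIs from mitochondrial genes were dropped. Doublets were kept, and removal of the highest Scrublet scores (12 intact and 87 callus cells, of them 2 and 5 Ptx3/Has1 cells) was an alternative. Groups were cut by UMI limits on single cells, with no clustering. The cells and all gene lists were chosen with earlier results of these data known, and they support nothing independently. UMIs were summed by group and scaled to CPM, genes with at least 20 UMIs over both groups were compared, and a count of 0 was set to 3. Shares have Clopper-Pearson and levels Poisson intervals at 95%, for counting error only. Genes were named by rank of the smaller ratio: the 15 highest and 10 lowest (both libraries) and 10 each way (callus over intact), with at least 50 UMIs and a UMI in at least 20% of the cells of the higher group, and for callus over intact still 2-fold without the richest cell. Up to 4 further genes per list were named, and any beyond these were chosen after their values were seen. A result that met the rule is not reported here. Limits of 3 and 10 UMIs, thinning, stricter filters, other scalings and left-out cells were alternatives. The ratio code was tested on simulated data. Of the gene identifiers, 99.6% were in GENCODE M21. Tools were python 3.11.15, numpy 2.4.6, scipy 1.17.1, pandas 2.3.3, scanpy 1.11.5 and matplotlib 3.10.9.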

Additional observations from a re-analysis of the deposited data

Results flagged for a closer look

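The erythroid list (6 genes) had opposite directions in the 2 libraries. Its median log2 ratio of *Ptx3*/*Has1* cells over other *Pi16* fibroblasts was 3.19 in intact and −2.37 in callus, and the difference between the libraries was not tested. The summed level was 10193 CPM against 1368 in intact and 4275 against 23567 in callus. A single intact *Ptx3*/*Has1* cell held 5672 of the 11505 UMIs, and a single other *Pi16* fibroblast of callus held 6381 of 6425. Without cells of 50 or more such UMIs the levels were 911 against 1368 CPM in intact and 223 against 172 in callus, so that the direction turned in both libraries.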

How the results depend on the processing

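With 1 library per condition, none of the ratios has a replicate check, and no result was past a test. The share of *Pi16* fibroblasts with the programme was 65.5% in intact and 57.5% in callus at 5 UMIs. It was 52.0% and 47.2% at 10 UMIs and 37.2% and 36.7% with cells thinned to 2000 UMIs before the limits. Without *Tnfaip6* in the sum it was 50.5% in intact (101 cells chosen and 99 not), while 56 callus cells were chosen and 50 not. The intact share was then no longer the higher. The 94 genes higher in both libraries became 37 after thinning, 59 with 50 UMIs per gene and 49 in cells of 4000 to 9000 UMIs, a range chosen after seeing the data. Of the 94, 37, 59 and 50 had enough UMIs under these settings, all with the same sign in both libraries, and 28, 59 and 40 were still past 2-fold in both. The setting of 50 UMIs changes only which genes are compared and leaves every ratio as it was. Its 59 of 59 was therefore fixed in advance and is no check. At 10 UMIs 64 of the 94 were, and 93 kept their sign in both. The 9 lower genes became 14 at a limit of 3 UMIs, 14 as means over cells, 1 after thinning, 1 with 50 UMIs and 0 in the depth range, so they are the least secure. Between callus and intact, 283 higher and 336 lower genes became 66 and 109 after thinning and 63 and 96 with 50 UMIs, and the higher genes 168 in the depth range. Without the *Bglap*-carrying *Col15a1* cells, 9 in place of 22 genes were also higher than in *Col15a1* cells, and 7 in place of 12 were higher than in all groups. Fewer UMIs or cells leave fewer genes to compare. Of 625 ratios of named genes under the alternatives, 607 kept their side of 2-fold, 16 fell under it and 2 changed sign: *Hbb-bt* after thinning (0.70 in callus over intact) and *Krt19* in the depth range (0.39). Counts of genes past 2-fold in the lists were less stable: of 1400 such counts, 1129 stayed the same and 271 moved. Without cells of 50 or more globin or myofibre UMIs, also chosen after seeing the data, *Tnnc2*, *Ckm*, *Tnnt3* and *Mylpf* fell to 0.70, 0.65, 0.54 and 0.84. No paired analysis was possible because each group has 1 library.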
